A study of Mus musculus with 4 samples.

Results

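The genes described here drive the cell cycle and DNA replication, from the D-type cyclins of the first gap phase to the motors and checkpoint kinases of mitosis. They were taken from a list of 41 genes, and a gene counted as measured when the array annotation gave its symbol as the only name of a probe set. A probe set is a group of short oligonucleotides that reads a transcript, or in some cases several. Of the 41 genes, 40 were measured, by 96 of the 45037 probe sets, among 18193 named genes in all. *Ccnb1*, which encodes cyclin B1, was not analysed here because no probe set carried it as its only name.

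Hearts of 10-week-old *Jun* delta mu mice (n = 2) were compared with hearts of 10-week-old Junf/f mice (n = 2), with 1 Affymetrix GeneChip mouse array per heart. *Jun* delta mu mice carry floxed alleles of *Jun* and a Cre recombinase driven by the creatine kinase promoter (MCK-Cre), which deletes *Jun* in striated muscle, so that the other cells of the heart keep the gene. Junf/f mice carry the same floxed alleles without Cre, and both groups, on a mixed background of 129/Ola and C57BL/6, had no operation or treatment. The growth notes given with the samples speak of plated ventricle cells instead. The methods of the study state that the array RNA came from hearts of 10-week-old mice, so the samples were taken as whole hearts.

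A cell that divides passes through G1, copies its DNA in S phase, and separates the copies in mitosis after a second gap, G2. Cyclins bind and switch on cyclin-dependent kinases at each step, inhibitor proteins hold these kinases back, and the retinoblastoma protein keeps E2F factors from switching on S phase genes. Heart muscle cells of mice largely stop dividing soon after birth, while fibroblasts, endothelial cells and blood-derived cells of the adult heart can still divide. c-Jun, the product of *Jun*, is a subunit of the AP-1 transcription factor, and in cultured fibroblasts it acts on the cyclin D1 promoter and represses transcription of p53.

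Transcription of many of these genes is timed by short promoter motifs. E2F sites serve G1/S genes, and the CHR element and CCAAT boxes serve genes of G2 and mitosis. Of the 40 measured members 6 had an unadjusted p under 0.05 between the genotypes (limma), beside 4.56% of all genes. Promoters are shown for 4 of these 6, 2 in each direction, so that their motifs can be set side by side. *Kif20a* had no promoter sequence at hand, and that of *Tyms*, which held none of the motifs searched below, is not shown. *Top2a* and *Kif11* had higher signals in *Jun* delta mu hearts, and *Cdt1* and *Mcm2* lower ones. Each run is the 250 bases before the start site in RefSeq (build GRCm38.p6), 5′ to 3′ on the strand of the gene, with CHR words and CCAAT boxes, in either orientation, in capitals. The windows are chr11:99024190-99024439 (minus strand) for *Top2a*, chr19:37376132-37376381 (plus strand) for *Kif11*, chr8:122567765-122568014 (plus strand) for *Cdt1* and chr6:88898781-88899030 (minus strand) for *Mcm2*. For *Top2a* the start site of the promoter table lies inside the gene span given with its values, so the last bases of this window overlap that span.
Top2a: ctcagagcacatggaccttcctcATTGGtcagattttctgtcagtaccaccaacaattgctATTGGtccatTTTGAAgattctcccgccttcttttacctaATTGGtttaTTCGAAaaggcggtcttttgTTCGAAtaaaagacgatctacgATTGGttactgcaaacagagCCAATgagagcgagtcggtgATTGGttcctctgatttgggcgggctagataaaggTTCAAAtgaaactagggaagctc
Kif11: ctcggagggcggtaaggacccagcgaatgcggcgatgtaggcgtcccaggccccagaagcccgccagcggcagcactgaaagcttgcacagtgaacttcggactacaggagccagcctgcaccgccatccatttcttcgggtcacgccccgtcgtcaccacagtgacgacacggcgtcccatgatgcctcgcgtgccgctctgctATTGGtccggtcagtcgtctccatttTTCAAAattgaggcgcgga
Cdt1: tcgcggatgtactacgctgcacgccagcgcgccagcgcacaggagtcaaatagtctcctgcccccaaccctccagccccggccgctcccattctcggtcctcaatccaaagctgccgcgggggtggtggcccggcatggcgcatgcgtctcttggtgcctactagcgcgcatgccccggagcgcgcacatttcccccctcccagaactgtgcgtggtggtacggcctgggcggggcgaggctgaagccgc
Mcm2: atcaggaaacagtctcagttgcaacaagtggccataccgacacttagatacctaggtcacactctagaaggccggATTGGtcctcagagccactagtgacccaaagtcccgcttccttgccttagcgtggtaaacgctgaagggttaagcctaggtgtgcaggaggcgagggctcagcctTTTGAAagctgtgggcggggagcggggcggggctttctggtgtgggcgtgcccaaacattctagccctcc

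The *Top2a* window held 4 CHR words and 6 CCAAT boxes. The windows of *Kif11* and *Mcm2* held 1 of each, and none of the motifs searched lay in that of *Cdt1*. These 4 windows were picked by p and direction in these data. *Mki67* and *Cdk1*, at differences of 0.049 and -0.10, were not called, and the window of each held 2 CHR words and 3 CCAAT boxes. A link between motifs and differences was not tested. Both strands were searched for CHR, spelled TTTGAA or otherwise TTCGAA, and for the CCAAT box. The E2F words were TTGGCGC with its variants TTCCCGC, then also TTCGCGC, and lastly TTGCCGC. The AP-1 word was TGANTCA, where N is any base, and the CRE, a site of related factors, was TGACGTCA. Overlapping matches were each counted. Windows were at hand for 30 of the 41 genes. Those of *E2f1*, *Aurka* and *Cdk6* lay wholly inside the RefSeq span of the gene, as did a further window each of *Mcm7*, *Cdkn1a*, *Cdkn2c* and *Ccnd3*. Some others, such as those of *Mki67* and *Mcm5*, overlapped the span of their gene in part. CHR was found for 9 of these 30 genes, against 17.1% of all 32851 windows, and CCAAT for 21, against 33.8% of all windows. E2F words were found for 9 genes (7.9% of all windows), the AP-1 word for 0 genes (6.7% of all windows) and the CRE for 1 gene, *Mcm5* (1.5% of all windows). A gene counted when any of its windows held the word, while the shares count single windows. *Mcm7*, *Cdkn1a*, *Cdkn2c* and *Ccnd3* had more than 1 window, so the 2 measures are not alike. A match describes the letters of these windows and not a bound site.

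The targeted gene was low on the arrays labelled for its deletion. *Jun* had a signal of 7.02 and 7.14 on the log2 scale in *Jun* delta mu hearts, against 8.30 and 9.00 in Junf/f hearts, by its brighter probe set. Array medians lay between 5.45 and 5.47. Each genotype held an array that stood apart. *Jun* delta mu replicate 2 alone had bright signals of the atrial muscle markers *Sln*, *Myl7* and *Myl4*, at 8.11, 9.11 and 9.02, and Junf/f replicate 1 had 104 probe sets more than 2-fold away from the other 3 arrays, where the others had 24 to 33. Heart muscle markers were bright on all arrays, with *Myh6*, named after its values were seen, at 14.69 and 14.67 in *Jun* delta mu hearts and at 14.72 and 14.70 in Junf/f hearts.

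Few cell cycle genes differed between the genotypes, and none after adjustment. A gene was called where its brightest probe set differed by over 1.3-fold with an unadjusted p under 0.05 in limma, the threshold of the study with another test. By that rule *Top2a* and *Kif20a* were higher and *Cdt1* was lower in *Jun* delta mu hearts, and 37 of the 40 genes were not called. The 2 higher genes stand beside 0.665% of all genes called higher, and the 1 lower gene beside 0.786% called lower. Of all member probe sets, 4 of 96 passed, against 1.53% of all probe sets. No adjusted p was under 0.05 among the 45037 probe sets (limma, two-sided, Benjamini-Hochberg), where 2326 had an unadjusted p under 0.05, and each adjusted p of the 3 called genes was 0.896. With 2 hearts against 2 an exact permutation test of a single gene cannot give a p below 0.333, so the unadjusted p-values rest on limma's pooled spread, and they measure only the spread between these hearts.

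As a group the genes were centred close to 0. The difference (*Jun* delta mu minus Junf/f, in log2 signal) was above 0 for 21 genes and below 0 for 19, with a median of 0.013, beside 0.0055 over all genes. Both *Jun* delta mu hearts lay above both Junf/f hearts for 9 genes, where 17.8% of all genes did so, and below both for 7 genes, where 15.9% of all genes did so. In whole hearts fewer cells of a type and less RNA per cell cannot be told apart. The plot of differences by phase shows the spread of each gene and of its other probe sets.

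**Figure D1:**
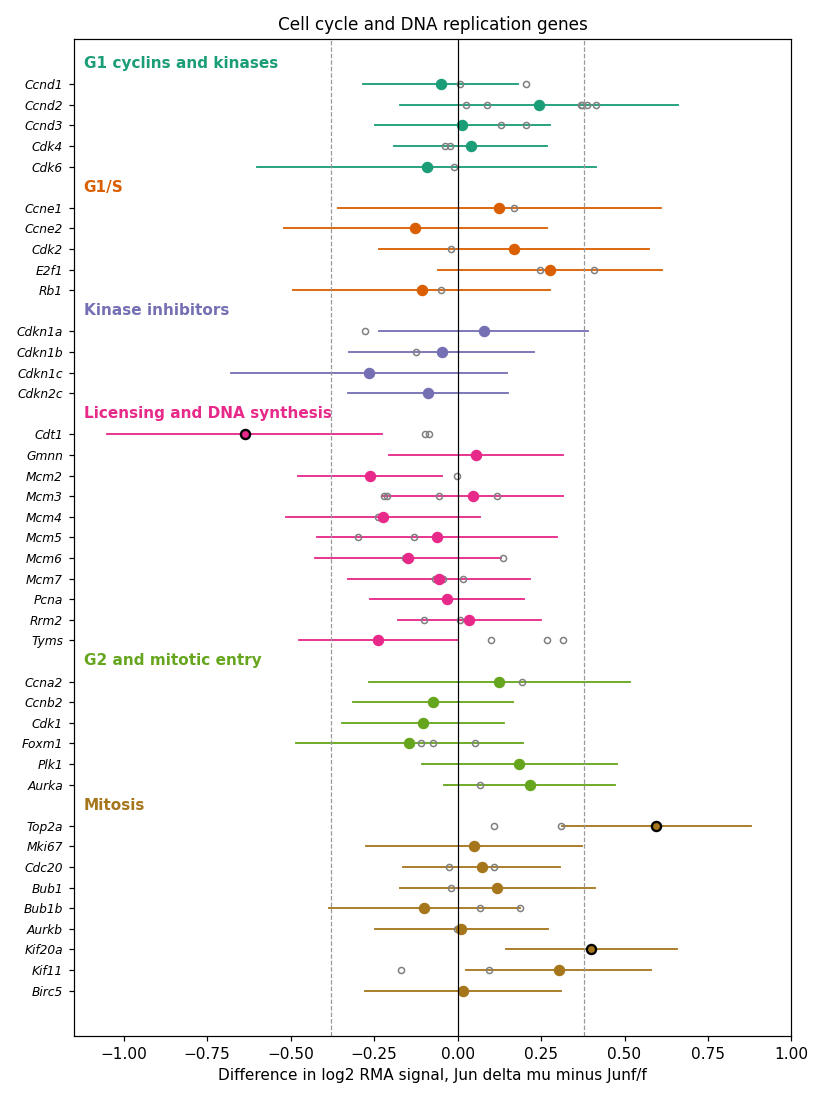
Difference in log2 RMA signal, Jun delta mu minus Junf/f hearts (n = 2 each), for the 40 measured genes by phase. Filled points are the brightest probe set with its 95% confidence interval from limma, open points are other probe sets, black rims mark the 3 called genes and dashed lines mark 1.3-fold; *Top2a* (0.60), *Kif20a* (0.40) and *Cdt1* (-0.64) lie outside the dashed lines.

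Of the 9 mitotic genes 8 had a difference above 0 (52.2% of all genes did), with a median of 0.072, and *Top2a* and *Kif20a* were called, beside 0.665% of all genes called higher. *Top2a* encodes DNA topoisomerase II alpha, which untangles replicated chromosomes. It lies on chromosome 11 from 98992947 to 99024199 (GRCm38.p6). Its signal was 4.82 and 4.67 in *Jun* delta mu hearts, against 4.05 and 4.25 in Junf/f hearts. Both *Jun* delta mu hearts were above both Junf/f hearts, and the gap between the groups was wider than the gap within either. The difference was 0.60 (SE 0.11, 95% confidence interval 0.31 to 0.88, 1.51-fold; limma, unadjusted p = 0.00251, adjusted p = 0.896). The call held when any one of the 4 arrays was left out, at differences of 0.50 to 0.69, and by the methods' t-test. The other probe sets of *Top2a* differed by 0.31 and 0.11 and were not called, and by the median over its probe sets (0.19) the gene was not called.

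*Kif20a*, a kinesin motor needed for the final separation of daughter cells, was read by 1 probe set. Its signal was 4.22 and 4.10 in *Jun* delta mu hearts, against 3.69 and 3.83 in Junf/f hearts. The groups did not overlap. The difference was 0.40 (SE 0.10, 1.32-fold; limma, unadjusted p = 0.00947, adjusted p = 0.896). It fell under the fold threshold without *Jun* delta mu replicate 1, at 0.34, and without Junf/f replicate 1, at 0.33, and was not called by the methods' t-test.

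*Kif11*, the kinesin that pushes the spindle poles apart, had a signal of 4.56 and 4.42 in *Jun* delta mu hearts, against 4.09 and 4.28 in Junf/f hearts. The groups did not overlap, but the difference of 0.30 (limma, unadjusted p = 0.0376) was under 1.3-fold, and its other probe sets were at 0.095 and -0.17. The spindle checkpoint kinases *Bub1* and *Bub1b* differed by 0.12 and -0.10, and *Cdc20*, an activator of the anaphase-promoting complex, by 0.072. *Mki67*, the gene of the proliferation marker Ki-67, differed by 0.049. Its signal was 4.69 and 4.72 in *Jun* delta mu hearts, against 4.50 and 4.82 in Junf/f hearts, with overlap. *Aurkb* (Aurora B kinase) and *Birc5* (survivin), partners in the chromosomal passenger complex, were at 0.011 and 0.016. By their brightest probe sets 8 of the 9 mitotic genes had a mean signal under 5.46, the median of all probe sets, a range where RMA compresses differences.

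**Figure D2:**
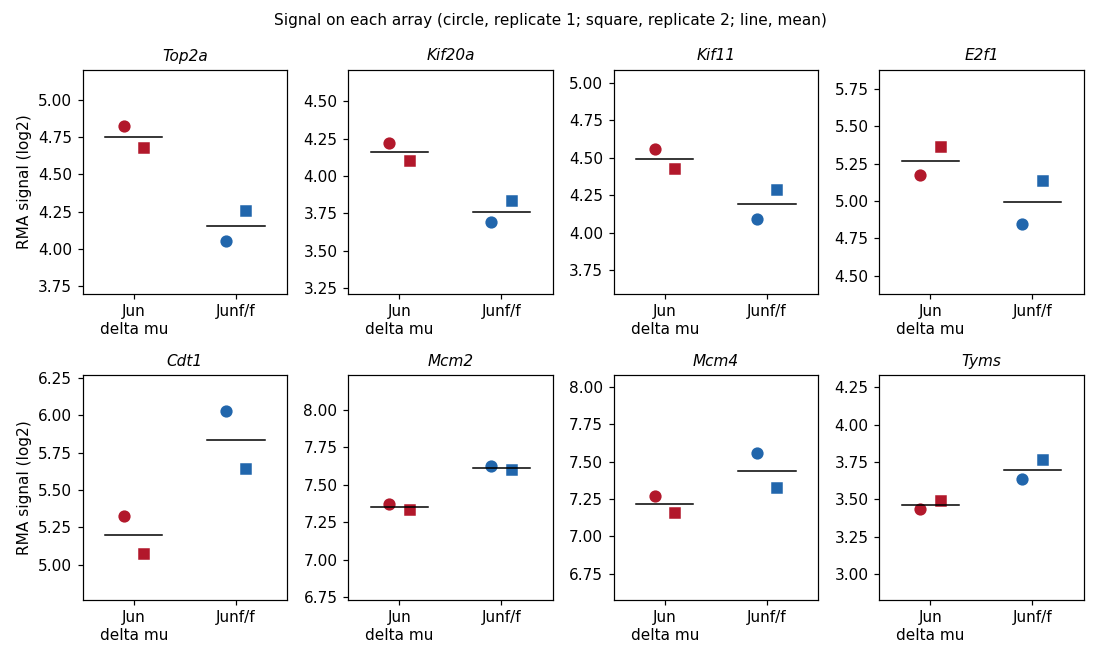
RMA signal (log2) of 8 genes on each array, Jun delta mu hearts left and Junf/f hearts right, where replicate 1 is a circle, replicate 2 a square and each line a group mean; each panel spans the same height. *Top2a*, *Kif20a*, *Kif11* and *E2f1* lie above and *Cdt1*, *Mcm2*, *Mcm4* and *Tyms* below the Junf/f hearts, without overlap. All 8 shown are genes without overlap, while the groups overlapped for 24 of the 40 members. Of all genes 17.8% lay above and 15.9% below in this way. *Tyms* is shown by its brightest probe set, and its other probe sets differed by 0.10, 0.27 and 0.32.

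Of the 11 genes of replication licensing and DNA synthesis 8 had a difference below 0 (47.8% of all genes did), with a median of -0.062, and *Cdt1* was called, beside 0.786% of all genes called lower. Licensing loads the MCM helicase onto origins before S phase. *Cdt1*, the loading factor, lies on chromosome 8 from 122568015 to 122573130 (GRCm38.p6). Its signal was 5.32 and 5.07 in *Jun* delta mu hearts, against 6.03 and 5.64 in Junf/f hearts. Both *Jun* delta mu hearts were lower than both Junf/f hearts, but the gap between the groups was narrower than the gap between the 2 Junf/f hearts. The difference was -0.64 (SE 0.16, 1.56-fold lower; limma, unadjusted p = 0.00982, adjusted p = 0.896). The call was lost without *Jun* delta mu replicate 2, at -0.51 (limma, unadjusted p = 0.0702), and by the methods' t-test. Other probe sets of *Cdt1*, dimmer, were at -0.098 and -0.087, and *Gmnn*, which encodes geminin, the inhibitor of Cdt1, was at 0.055.

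The helicase subunits *Mcm2*, *Mcm4*, *Mcm5*, *Mcm6* and *Mcm7* were below 0 and *Mcm3* above it. *Mcm2* had a signal of 7.37 and 7.33 in *Jun* delta mu hearts, against 7.63 and 7.60 in Junf/f hearts. The 2 hearts of each genotype were nearly equal and the groups did not overlap. The difference was -0.26 (SE 0.086; limma, unadjusted p = 0.0252), under 1.3-fold, and its other probe set was at -0.0030. *Mcm4* was at -0.22, with 7.27 and 7.16 in *Jun* delta mu hearts, against 7.56 and 7.32 in Junf/f hearts. *Mcm6* was at -0.15, *Mcm5* at -0.062, *Mcm7* at -0.056 and *Mcm3* at 0.046. The sign of *Mcm3* depended on the probe set, since 3 of its 4 other probe sets were below 0.

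No gene of DNA synthesis itself was called. *Tyms*, which encodes thymidylate synthase, had a signal of 3.43 and 3.49 in *Jun* delta mu hearts, against 3.63 and 3.76 in Junf/f hearts. This probe set gave a difference of -0.24 (limma, unadjusted p = 0.04996), while the other 3 were at 0.10, 0.27 and 0.32. *Pcna*, the sliding clamp of the replication fork, was at -0.031, and *Rrm2*, a ribonucleotide reductase subunit, at 0.035. In this phase group both *Jun* delta mu hearts lay below both Junf/f hearts for 5 genes (*Cdt1*, *Mcm2*, *Mcm4*, *Mcm6* and *Tyms*) and above both for 1 (*Rrm2*), where 15.9% of all genes lay below and 17.8% above.

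**Figure D3:**
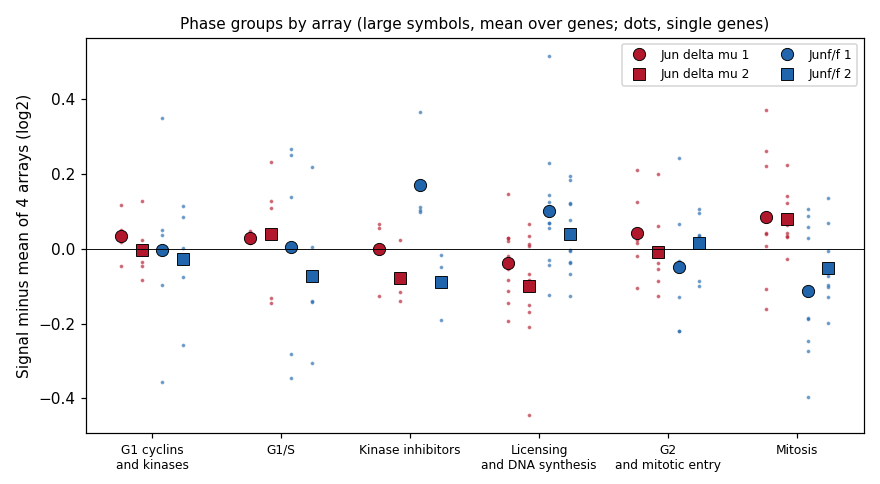
Signal of each gene minus its mean over the 4 arrays (log2), by phase group and array, with Jun delta mu arrays in red and Junf/f arrays in blue; large symbols are means over genes and dots are single genes. The mitotic means lie at 0.084 and 0.079 on the Jun delta mu arrays and at -0.11 and -0.051 on the Junf/f arrays, while the licensing means lie at -0.039 and -0.10 on the Jun delta mu arrays and at 0.10 and 0.038 on the Junf/f arrays. The means include single genes with large differences. These are *Top2a* (0.60), *Kif20a* (0.40) and *Kif11* (0.30), beside a mitotic median difference of 0.072, and *Cdt1* (-0.64), beside a licensing median of -0.062.

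No gene of G1 or of the G1/S step was called by its brightest probe set, and the median differences were 0.014 and 0.13. *E2f1*, a transcription factor of S phase genes, had a signal of 5.18 and 5.36 in *Jun* delta mu hearts, against 4.85 and 5.13 in Junf/f hearts. The groups were separate by a narrow margin. The difference was 0.28 (SE 0.13; limma, unadjusted p = 0.0883). Its other probe sets were at 0.41, which passed the threshold (limma, unadjusted p = 0.0494), and at 0.25, so that all 3 were above 0. *Ccne1* and *Ccne2*, the E-type cyclins, were at 0.13 and -0.13, and their partner *Cdk2* was at 0.17. Of the alternatives run, *Cdk2* passed only when Junf/f replicate 1 was left out, at 0.39 (limma, unadjusted p = 0.0158). *Rb1*, the gene of the retinoblastoma protein, was at -0.11.

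Among the D-type cyclins, *Ccnd1* (cyclin D1) had a signal of 8.99 and 8.87 in *Jun* delta mu hearts, against 9.00 and 8.96 in Junf/f hearts. The groups overlapped. The difference was -0.051 with a 95% confidence interval of -0.28 to 0.18, and its other probe sets were at 0.0072 and 0.21. *Ccnd3* was at 0.014, and the kinases *Cdk4* and *Cdk6*, which D cyclins switch on, were at 0.039 and -0.092.

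*Ccnd2* (cyclin D2) had the widest spread of these cyclins. Its brightest probe set read 10.31 and 10.32 in *Jun* delta mu hearts, against 9.84 and 10.31 in Junf/f hearts. Junf/f replicate 1 was low and the other 3 hearts were nearly equal. On 6 of the 7 *Ccnd2* probe sets Junf/f replicate 1 was the lowest array. The difference was 0.24 (SE 0.17; limma, unadjusted p = 0.198) and reached 0.48 without Junf/f replicate 2 but was 0.0077 without Junf/f replicate 1.

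**Figure D4:**
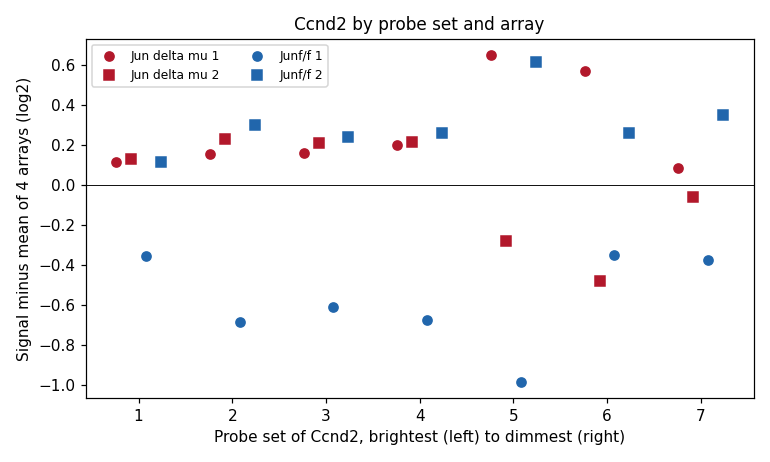
Signal of each of the 7 *Ccnd2* probe sets minus its mean over the 4 arrays (log2), from the brightest at the left to the dimmest, with Jun delta mu arrays in red and Junf/f arrays in blue. Junf/f replicate 1 is lowest on 6 probe sets, and Junf/f replicate 2 lies with the Jun delta mu arrays on the 4 brightest.

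The kinase inhibitors had a median of -0.068, and no member was called. *Cdkn1c* (p57) had a signal of 8.02 and 8.01 in *Jun* delta mu hearts, against 8.52 and 8.05 in Junf/f hearts. Junf/f replicate 1 was high, and the other Junf/f heart lay only narrowly above the Jun delta mu hearts. The difference was -0.27 (limma, unadjusted p = 0.164). *Cdkn1a* (p21), a target of p53, had 9.99 and 9.96 in *Jun* delta mu hearts, against 10.04 and 9.74 in Junf/f hearts, a difference of 0.078 with overlap, while its other probe set was at -0.28. *Cdkn1b* (p27) and *Cdkn2c* (p18) were at -0.048 and -0.087.

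The genes of G2 and mitotic entry had a median of 0.025, with 3 above and 3 below 0, and none was called. *Aurka* (Aurora A, a centrosome kinase) had a signal of 4.71 and 4.90 in *Jun* delta mu hearts, against 4.57 and 4.61 in Junf/f hearts. The difference was 0.22 (limma, unadjusted p = 0.0847), and the groups were separate. *Plk1*, a mitotic kinase, was at 0.18 and *Ccna2* (cyclin A2) at 0.12. *Cdk1*, the main mitotic kinase, was at -0.10, *Ccnb2* (cyclin B2) at -0.075, and *Foxm1*, a transcription factor for G2 genes, at -0.14.

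Junf/f replicate 1 stood apart for many members. For 23 of the 40 genes (57.5%) Junf/f replicate 1 was the array farthest from the others, against 40.5% of all genes. The gap between the 2 Junf/f hearts was wider than that between the 2 *Jun* delta mu hearts for 32 of the 40 genes (80.0%), against 61.3% of all genes. The median gap was 0.084 in *Jun* delta mu and 0.19 in Junf/f hearts. Without Junf/f replicate 1, *Cdt1* and *Top2a* were still called, *Kif20a* was not, and *Cdk2* was added, 3 of 40 members beside 2.01% of all genes. Without Junf/f replicate 2, 9 of 40 members were called beside 6.68% of all genes. These were *Top2a*, *Kif20a* and *Cdt1* with *Ccnd2* at 0.48, *Cdk6* at -0.40, *Ccne1* at 0.41, *E2f1* at 0.42, *Cdkn1c* at -0.50 and *Kif11* at 0.40. Without *Jun* delta mu replicate 2, the array with atrial markers, *Top2a* (0.67) and *Kif20a* (0.46) were called, 2 members beside 1.50% of all genes. Without *Jun* delta mu replicate 1, *Cdt1* and *Top2a* were called, 2 members beside 1.79% of all genes. The part of these arrays in the results was not tested further.

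**Figure D5:**
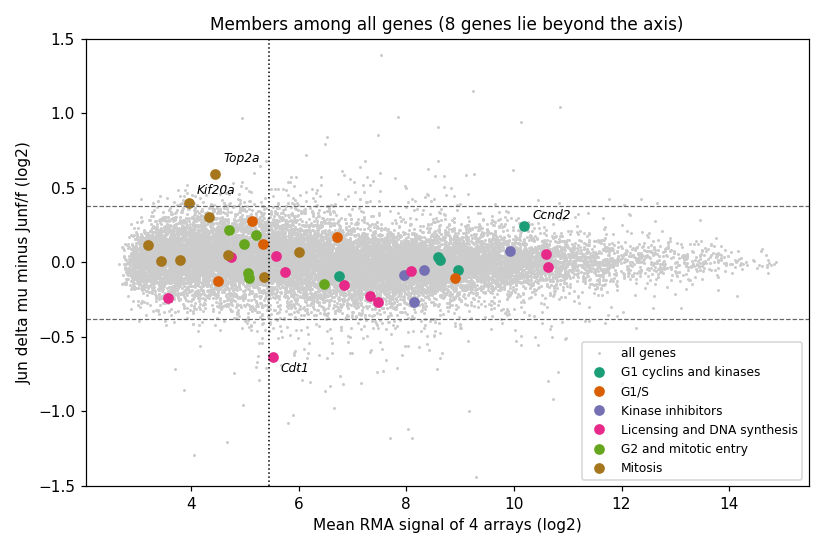
Difference in log2 RMA signal (Jun delta mu minus Junf/f) against mean signal over the 4 arrays, for all genes in grey (8 lie beyond the axis) and the 40 members by phase in colour. Dashed lines mark 1.3-fold and the dotted line is the median signal of all probe sets, 5.46; 18 members lie left of it.

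Other genes of the pathway had low unadjusted p-values about as often as all genes. Of 109 further cell cycle genes 107 were measured, and 0 were called by their brightest probe sets. Of all genes 0.665% were called higher and 0.786% lower. Among the 107 genes 5 had an unadjusted p under 0.05 (limma), beside 4.56% of all genes. These 5, named after their values were seen, were the replication kinase *Cdc7* at 0.32, the GINS subunit *Gins3* at 0.26, the mitotic kinase *Nek2* at 0.22, and the cytokinesis genes *Prc1* at 0.27 and *Anln* at 0.27. The other probe sets of *Cdc7*, *Gins3*, *Prc1* and *Anln*, 1 each, were below 0, at -0.21, -0.11, -0.042 and -0.048, and the other 3 of *Nek2* were at 0.35, 0.021 and -0.078. *Cenpf*, a kinetochore gene, also named afterwards, had 9.41 and 8.76 in *Jun* delta mu hearts, against 8.69 and 8.48 in Junf/f hearts. *Jun* delta mu replicate 1 was high, and the difference of 0.50 missed the threshold (limma, unadjusted p = 0.0707). Its other probe sets were at 0.10 and 0.063.

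The markers of cells that can divide were given beside the members. No lymphocyte, macrophage, fibroblast or endothelial marker and no thymus marker was called. Of the smooth muscle markers 4 of 4 were below 0, where 47.8% of all genes were, and *Cnn1* was called lower at -0.67. The 3 measured erythroid markers were also below 0, and *Alas2* was called lower at -0.49. These 2 calls stand beside 0.786% of all genes called lower. Both genes were named after their values were seen. Of the endothelial markers 4 of 5 had both *Jun* delta mu hearts below both Junf/f hearts, where 15.9% of all genes did so. Their summed signal was 11.47 and 11.42 in *Jun* delta mu hearts, against 11.56 and 11.65 in Junf/f hearts. For 3 of 6 fibroblast markers both *Jun* delta mu hearts lay above both Junf/f hearts (17.8% of all genes), and for 0 below. The fibroblast sums were 13.99 and 14.10 in *Jun* delta mu hearts, against 14.08 and 13.93 in Junf/f hearts. Of the 6 macrophage markers 1 lay above and 1 below in this way. The macrophage sums were 11.74 and 11.77 in *Jun* delta mu hearts, against 11.66 and 11.60 in Junf/f hearts. The summed signal of the lymphocyte markers was 9.00 and 8.85 in *Jun* delta mu hearts, against 9.19 and 8.85 in Junf/f hearts, on the log2 scale, and that of the smooth muscle markers 10.42 and 10.68, against 10.94 and 10.96. That of the mitotic members was 7.87 and 7.87 in *Jun* delta mu hearts, against 7.74 and 7.75 in Junf/f hearts. The part of these cell types in the results was not tested.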

How the data were processed

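Total RNA from hearts of 2 Jun delta mu and 2 Junf/f mice was measured on 4 Affymetrix GeneChip mouse arrays. The deposited values are log2 signals per probe set, normalized by the authors; RMA of the package oligo is credited to the submitters' processing notes, and versions are not given in the sources used here. Precision is limited by the number of arrays, which left 2 residual degrees of freedom. After 64 AFFX controls were left out, 45037 probe sets were tested for genotype alone by limma (version 3.58.1, under R 4.3.3) through lmFit and then eBayes, two-sided, and adjusted by Benjamini-Hochberg over all of them. The methods' threshold (over 1.3-fold, unadjusted p under 0.05) was applied to each gene's brightest probe set. Probe sets with several names (932) or none (9160) entered the fit but no gene count. Members, further cell cycle genes and cell type markers were listed with earlier results of these data known. Genes named are the members, *Jun*, called genes of the further list and markers on which an array stood apart; others are said to be named afterwards. Alternatives covered the test, a replicate block, the prior, a low-signal filter, 3 normalizations, the choice of probe set and each array left out. The procedure was tested on simulated data, where recovery was required only for shifts larger than the differences of the called members. Figures were drawn with matplotlib 3.10.9.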

Additional observations from a re-analysis of the deposited data

How the results depend on the processing

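The calls of the 3 members depended on the processing. Of the 40 members, the 3 called became 1 by the methods' t-test (*Top2a*) and 0 after its Benjamini-Hochberg adjustment. They became 1 of 29 with the lowest 40% of probe sets removed (*Cdt1*) and 1 by the median over the probe sets of a gene (*Kif20a*). With only probe sets whose names end in plain _at, 0 of 36 were called. That setting left out names ending in _a_at, _s_at or _x_at. The brightest probe sets of *Top2a*, *Kif20a* and *Cdt1* all end in _a_at, and *Kif20a* had no other. That of *Mcm2* ends in _s_at, and its plain _at probe set was at -0.0030. Counting a gene by any of its probe sets, an alternative chosen after seeing the data, gave 4. Leaving out each array in turn gave 2 to 9 members, 0 to 8 of the further cell cycle genes and 739 (without Jun delta mu replicate 2) to 3452 (without Junf/f replicate 2) of all probe sets. Over all probe sets, where 688 passed, the t-test gave 200, its adjustment 0 and the median over probe sets 210 genes. With the replicate block 3 members and 683 probe sets passed and 1 further cell cycle gene (*Cenpf*), as also 1 by quantile normalization and 1 by cyclic loess. The sample labels give same-numbered hearts no link beyond the number. Their replicate 1 minus replicate 2 differences correlated at 0.028 between the genotypes over all probe sets. This value cannot show whether such hearts shared a litter or a processing day. The cause of these changes in the counts was not tested. Of the 40 members 18 lay below the median signal, where RMA compresses differences.

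Phase group medians moved as follows, with that of the kinase inhibitors not listed. Among the kinase inhibitors, *Cdkn1a* and *Cdkn1b* had ranges over arrays left out that span 0, given in the next paragraph. With plain _at probe sets only, the G1 median was -0.038 and the licensing median -0.11. With the lowest 40% removed, the G2 median was -0.075 and the mitotic median -0.014 (2 genes). Leaving out each array gave -0.028 to 0.037 for G1, -0.053 to 0.17 for G1/S, -0.14 to -0.055 for licensing, -0.058 to 0.12 for G2 and 0.078 to 0.21 for mitosis.

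No member past the threshold changed sign in the alternatives run. Members not past it changed sign by the median over probe sets (*Ccnd1* 0.0072, *Cdk4* -0.038, *Cdkn1a* -0.099, *Mcm3* -0.22, *Rrm2* -0.10, *Tyms* 0.16, *Cdc20* -0.026, *Bub1b* 0.19). Others did so with plain _at probe sets only (*Cdk4* -0.038, *Cdk2* -0.019, *Mcm3* -0.21), and by quantile normalization (*Aurkb* -0.0077, *Birc5* -0.0040) and cyclic loess (*Aurkb* -0.0025, *Birc5* -0.0013). Ranges over arrays left out that span 0 were -0.11 to 0.0072 for *Ccnd1*, -0.077 to 0.10 for *Ccnd3*, -0.016 to 0.095 for *Cdk4*, -0.40 to 0.21 for *Cdk6*, -0.16 to 0.41 for *Ccne1*, -0.33 to 0.076 for *Ccne2*, -0.053 to 0.39 for *Cdk2*, -0.30 to 0.088 for *Rb1*, -0.072 to 0.23 for *Cdkn1a*, -0.14 to 0.043 for *Cdkn1b*, -0.042 to 0.15 for *Gmnn*, -0.055 to 0.15 for *Mcm3*, -0.24 to 0.12 for *Mcm5*, -0.15 to 0.040 for *Mcm7*, -0.083 to 0.021 for *Pcna*, -0.032 to 0.28 for *Ccna2*, -0.32 to 0.027 for *Foxm1*, -0.11 to 0.21 for *Mki67*, -0.0093 to 0.25 for *Bub1*, -0.21 to 0.013 for *Bub1b*, -0.081 to 0.10 for *Aurkb* and -0.099 to 0.13 for *Birc5*.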
